A study of Mus musculus with 4 samples.

Results

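Basophils are rare granulocytes that carry the high-affinity receptor for immunoglobulin E, respond to the cytokine IL-3 and release histamine, lipid mediators and type 2 cytokines such as IL-4. In mice they are recognised by the protease Mcpt8, which mature mast cells do not use, and by the transcription factor Gata2, which they share with mast cells. Here they were looked for among single cells of mouse colon tumours by a rule on measured counts. A cell was selected on at least 2 unique molecular identifiers (UMIs, tags that mark 1 captured RNA molecule each) of Mcpt8 and at least 1 UMI of Gata2, Ms4a2, Cyp11a1 and Il4 in sum. The rule found 57 cells of 14198 that passed a filter of at least 500 UMIs, at least 200 genes and at most 20% mitochondrial UMIs, or 0.401% (exact binomial 95% interval 0.304 to 0.520%). Because these counts chose the cells, the levels of the 5 rule genes, and of all genes set against the other cells, are descriptions with no test.

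The tumours came from female C57BL/6 mice given 1 dose of the carcinogen azoxymethane (AOM, 12.5 mg/kg) and 3 cycles of 5 days of the colitis agent dextran sulphate sodium (DSS, 2.5% in the first cycles and 2% in the last), and were collected 30 days after DSS ended. By the labels there were 4 groups of 1 sample each: CD45+ cells of EgfrΔMYL tumours, CD45+ cells of Egfr fl/fl tumours, CD45- cells of EgfrΔMYL tumours and CD45- cells of Egfr fl/fl tumours. EgfrΔMYL mice lack the epidermal growth factor receptor in the myeloid lineage, the Egfr fl/fl controls carry the floxed allele, and all groups received AOM and DSS. The Cre driver and the number of mice per sample are not given in the sources used here.

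The counts form 1 matrix of 18026 barcodes and 31053 genes with 129529250 UMIs, in which barcodes end in a suffix of 1 to 4. No source used here says which suffix is which sample, so the genotypes and the sorts were not compared and each suffix stands alone with its own value. Passing cells numbered 594, 1706, 4516 and 7382 in suffixes 1 to 4, with medians of 4507, 3390.5, 4932.5 and 5177 UMIs. Cells with epithelial markers made up 59.8% and 64.4% of passing cells in suffixes 1 and 2, and under 1% in suffixes 3 and 4. Of the barcode sequences, 24 occurred under more than 1 suffix, and no selected cell carried one of them. With 1 matrix and no replicates, no p-value is given, and every interval is an exact 95% interval that covers counting error only.

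The selected cells fell into 2 unlike sets, which were separated by Kit, the stem cell factor receptor of mast cells, after the values had been seen. A first set of 47 cells held no Kit UMI. Mcpt1 and Mcpt2, the proteases of mucosal mast cells, which are near copies of each other and are summed here, reached at most 1 UMI per cell in these 47 cells. The remaining 10 cells held 2 to 18 Kit UMIs and 76 to 7222 UMIs of Mcpt1 and Mcpt2, with a median of 1822.5, so the sets did not overlap in Mcpt1 and Mcpt2. Mcpt1 and Mcpt2 took 17.4% of all UMIs of these 10 cells, close to the 18.3% of 76 mast-like cells that did not meet the rule, which had been set apart by mast cell markers. Against the label, then, the 10 Kit-positive cells carried mast cell RNA together with Mcpt8. They are given apart below, the 47 cells are called basophils, and the 57 are called the Mcpt8-selected cells.

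**Figure D1:**
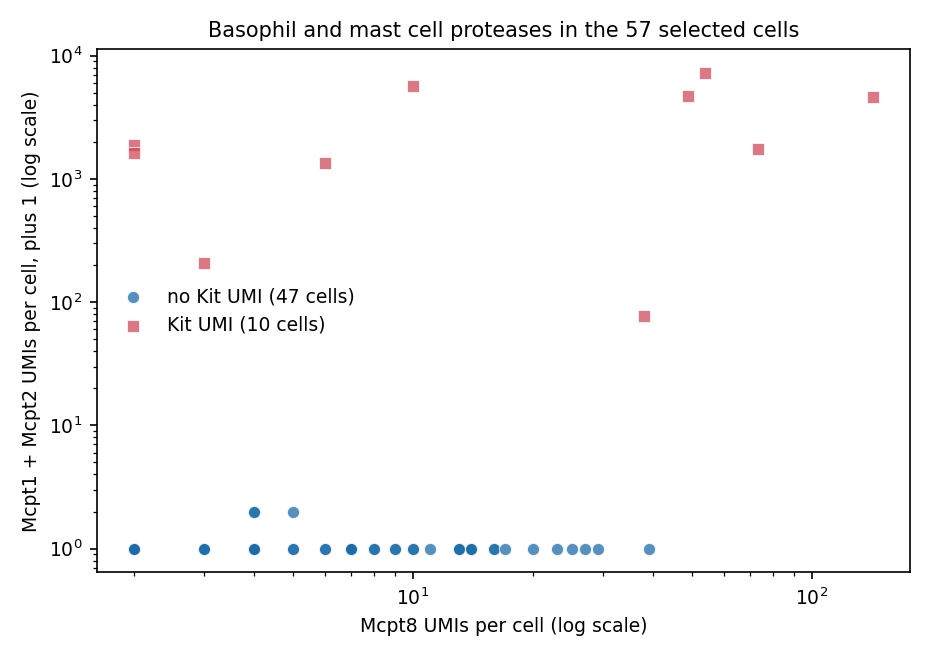
Each point is 1 of the 57 selected cells, with its Mcpt8 UMIs on the x axis and its Mcpt1 plus Mcpt2 UMIs, with 1 added, on the y axis, both on log scales. The 47 cells with no Kit UMI (circles) lie at 0 or 1 Mcpt1 plus Mcpt2 UMIs, and the 10 cells with a Kit UMI (squares) lie between 76 and 7222.

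The 47 basophils held 1526 to 20620 UMIs per cell, with a median of 3963, and 223924 UMIs in all. The 10 Kit-positive cells held 5160 to 42343, with a median of 10170.5, against a median of 2163 in mast-like cells. They supplied 42.8% of the UMIs of the 57 cells, and 4 of them exceeded 20000 UMIs, against 9.76% of all passing cells. The part of this depth in the joint presence of Mcpt8 and mast cell RNA was not tested. Genes that the basophils held at high levels, such as Ccl6 and Hdc, were at 5.97 and 155 CPM in the 10 cells, against 9427 and 5484 CPM in the 47, where CPM are UMIs of a gene scaled to 1000000 UMIs of a set.

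Basophils lay mainly in the suffixes with most epithelial cells. Suffixes 1 to 4 held 18, 21, 5 and 3 of the 47 basophils, which is 3.03% (1.81 to 4.75%), 1.23% (0.764 to 1.88%), 0.111% (0.0360 to 0.258%) and 0.0406% (0.00838 to 0.119%) of their passing cells. The 10 Kit-positive cells ran the other way, with 0, 1, 2 and 7 cells, as did the mast-like cells, with 1, 4, 24 and 47. The transcript of the sorting antigen CD45, Ptprc, stood at 304 CPM in basophils and at 180 CPM in mast-like cells, against 1095 CPM in B-like, 1338 CPM in T-like and 1208 CPM in neutrophil-like cells. Whether this level bears on the spread over suffixes was not tested, and CD45 protein was not measured in the files.

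Few Mcpt8 UMIs lay outside the rule. Members held 854 of the 866 Mcpt8 UMIs in passing cells, or 98.6%. Among members, 6 had exactly 2 Mcpt8 UMIs and 38 had at least 6. The nearest cells outside were 12 with exactly 1 Mcpt8 UMI, of which 8 held 8 to 131 UMIs of the other rule genes and 4 held none, and no passing cell had 2 or more Mcpt8 UMIs without the other genes. Per cell, the other rule genes together gave 4 to 91 UMIs, with a median of 19, in the 57 members. Of cells outside the rule, 65 reached 4 such UMIs, and 46 of these were mast-like.

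Upstream sequences of genes that mark basophils, mast cells or both are shown because Gata2, a factor that binds GATA motifs, was used to choose the cells. Each line gives 250 bases 5′ of the transcription start in lower case, from RefSeq on build GRCm38.p6, with GATA motif matches on either strand in capitals, overlaps each counted. The motif was searched as 4 hexamers, which were AGATAA, its variant AGATAG, the form TGATAA and its variant TGATAG. Prss34 and Cd200r3 are basophil surface or granule genes, Ms4a2 is the beta chain of the immunoglobulin E receptor, Cpa3 is a carboxypeptidase of mast cells and basophils, and Mcpt4 is a mast cell chymase.
Prss34, chr17:25298144-25298393, plus strand: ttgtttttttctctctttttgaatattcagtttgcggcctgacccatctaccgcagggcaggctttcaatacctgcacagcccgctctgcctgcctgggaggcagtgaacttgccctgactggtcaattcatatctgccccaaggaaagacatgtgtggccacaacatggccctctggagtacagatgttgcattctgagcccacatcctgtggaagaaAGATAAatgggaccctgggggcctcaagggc
Cd200r3, chr16:44943428-44943677, plus strand: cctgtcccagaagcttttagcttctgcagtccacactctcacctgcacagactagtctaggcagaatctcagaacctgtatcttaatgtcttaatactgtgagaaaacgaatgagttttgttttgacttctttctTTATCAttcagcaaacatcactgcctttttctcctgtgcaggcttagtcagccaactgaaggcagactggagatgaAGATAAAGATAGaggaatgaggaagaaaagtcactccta
Ms4a2, chr19:11623720-11623969, minus strand: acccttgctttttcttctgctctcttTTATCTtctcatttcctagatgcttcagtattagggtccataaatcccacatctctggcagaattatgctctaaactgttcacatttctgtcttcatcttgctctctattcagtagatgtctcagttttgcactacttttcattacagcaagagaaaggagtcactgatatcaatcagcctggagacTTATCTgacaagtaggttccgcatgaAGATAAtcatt
Cpa3, chr3:20242182-20242431, minus strand: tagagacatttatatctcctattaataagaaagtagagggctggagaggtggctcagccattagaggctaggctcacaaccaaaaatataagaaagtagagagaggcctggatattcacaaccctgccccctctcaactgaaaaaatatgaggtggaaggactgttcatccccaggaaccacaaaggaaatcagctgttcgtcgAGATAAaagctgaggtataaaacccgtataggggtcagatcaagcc
Mcpt4, chr14:56062311-56062560, minus strand: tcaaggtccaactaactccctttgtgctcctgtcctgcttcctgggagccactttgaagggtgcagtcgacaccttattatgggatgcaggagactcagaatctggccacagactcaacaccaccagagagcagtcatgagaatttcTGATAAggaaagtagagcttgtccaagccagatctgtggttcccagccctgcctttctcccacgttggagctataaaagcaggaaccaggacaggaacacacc

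Ms4a2 and Cd200r3 held 3 matches each, and Prss34, Cpa3 and Mcpt4 held 1 each. In Cd200r3 a pair of matches stood side by side, with their first bases at -39 and -33, counted back from the transcription start. Of 32851 listed promoters, 26.5% held at least 1 match in the same window, and 6.40% held 2 or more, counted per promoter and not per gene. Among the 25 genes with the largest fold in basophils, 22 had a listed promoter and 14 of these held a match. These 25 include the rule genes, which chose the cells. A gene counted here if any of its promoters held a match, so the shares per promoter are not a like comparison. Of the 10 genes with the lowest fold, 9 had a listed promoter and 7 of these held a match. A match is a run of letters and not a measured binding site, and Mcpt8 itself had none in its window.

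Against all 14141 other passing cells, 1244 of 14534 genes with at least 50 UMIs reached a 2-fold higher level in the 57 Mcpt8-selected cells (8.56%) and 4556 were at least 2-fold lower (31.3%), after 1 CPM was added to each level. In the 47 basophils the counts were 1493 higher (10.3%) and 5934 lower (40.8%). The median gene stood at a log2 fold of -0.47 in the 57 cells and -0.72 in the 47, so most genes lay lower in the selected cells on this scale. With folds centred on that median, 2536 genes were higher and 3065 lower in the 57 cells. With 10 CPM added in place of 1 CPM, 578 were higher and 1330 lower in the 57 cells. A gene low in the other cells can count as lower with no UMI in the selected cells, where depth cannot show a difference. The counts of lower genes, here and in the lists below, thus partly reflect the limit of depth. The rule and these folds use the same cells, so the counts below are read beside these shares and support nothing.

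The genes with the largest log2 folds in basophils outside the rule included genes known from this cell type. Prss34, a serine protease also called mast cell protease 11, had 424 CPM (343 to 519) in basophils and 0.0413 CPM in the other cells. It was seen in 19 of the 47 basophils, and in 0 of the 3 in suffix 4. Csrp3, better known as a muscle LIM protein, had 357 CPM (283 to 445) in basophils and 0.0660 CPM in the other cells, and was seen in 28 of the 47 basophils. Both genes had no UMI in the 10 Kit-positive cells. Cd200r3, an activating receptor of basophils and mast cells, had 817 CPM in basophils, 227 CPM in Kit-positive cells and 423 CPM in mast-like cells. Of 22 genes listed for basophil identity outside the rule that passed the count minimum, 21 were at least 2-fold higher in the 57 cells and 22 in the 47, and the prostaglandin D2 receptor Ptgdr2, one of those under the minimum, had 0 UMIs. The median log2 fold of this list was 3.87 in the 47 basophils. Runx1, a factor of blood stem cells, was the gene that passed only in the 47, with a log2 fold of 0.69 in the 57 cells and 1.11 in the 47.

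The immunoglobulin E receptor was present in both sets. Fcer1a, its alpha chain, had 942 CPM (819 to 1078) in basophils, 1535 CPM in Kit-positive cells and 1684 CPM in mast-like cells. Ms4a2, a rule gene, had 942 CPM in basophils, 442 CPM in Kit-positive cells and 865 CPM in mast-like cells. Fcer1g, the gamma chain that other myeloid cells also use, had 2403 CPM in basophils and 1351 CPM in the other cells. Of 21 listed genes of this receptor and its signalling, 9 were at least 2-fold higher and 0 lower in the 47 basophils, against 7 higher and 1 lower in the 57 cells. The adaptor Lat2 stood at 969 CPM in basophils and 48.3 CPM in the other cells. The kinases Lyn and Syk, which act just below the receptor, stood at 112 and 71.5 CPM in basophils, against 211 and 123 CPM in the other cells. Among inhibitory receptors and brakes, 8 of 18 were higher and 5 lower in basophils, with Lilrb4a at 902 CPM against 174 CPM and Cd200r1 at 121 CPM against 12.9 CPM.

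Of 9 listed cytokine and growth factor receptors with enough counts, 4 were higher and 2 lower in basophils than in mast-like cells. Over all 1224 genes so compared, 30.6% were at least 2-fold higher and 16% lower. Il3ra, the alpha chain of the IL-3 receptor, had 161 CPM (113 to 223) in basophils and 22.5 CPM (8.24 to 48.9) in mast-like cells. By suffix, Il3ra had 218, 70.3, 105 and 138 CPM in basophils, and 27 of its 36 UMIs lay in suffix 1. The other cells had 9.53, 6.03, 15.2 and 14.3 CPM of Il3ra by suffix, and its log2 fold in the 57 cells was 2.84, and 1.76 without suffix 1. The shared beta chains Csf2rb and Csf2rb2, near copies between which the counting could divide reads, had 938 and 322 CPM in basophils, against 326 and 292 CPM in mast-like cells. Both chains of the IL-18 receptor, Il18r1 and Il18rap, had 308 and 456 CPM in basophils, against 14.97 CPM each in mast-like cells, and 0 UMIs in the 10 Kit-positive cells. Il1rl1, the IL-33 receptor, ran the other way, with 147 CPM (101 to 207) in basophils and 599 CPM (510 to 699) in mast-like cells. Il18r1 stood at 363, 158, 455 and 138 CPM in the basophils of suffixes 1 to 4, with only 2 UMIs in suffix 4, against 4.85, 1.47, 21.6 and 22.2 CPM in the other cells. The log2 fold of Il18r1 in the 57 cells was 3.16, and 2.14 without suffix 1. For Il3ra and Il18r1, the folds without suffix 1 include all 10 Kit-positive cells, none of which lay in suffix 1. Il18rap stood at 379, 492, 735 and 415 CPM in the basophils of suffixes 1 to 4, against 10.9, 4.48, 23.1 and 33.2 CPM in the other cells. Of 29 listed cytokine receptors, 7 were at least 2-fold higher and 15 lower in the 47 basophils, and Il5ra, the IL-5 receptor of eosinophils, had 0 UMIs. Of these 29, 9 had 0 UMIs in basophils.

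Protease levels are a description of how the sets were chosen as well as of the cells, since Mcpt8 chose the basophils, Kit divided the selected cells, and Mcpt1, Mcpt2, Mcpt4, Cma1, Tpsb2, Cpa3 and Kit are on the marker list that named the mast-like cells. The genes for Mcpt1, Mcpt2, Mcpt4, Cma1, Mcpt8, Ctsg and Gzmb lie in 1 cluster on chromosome 14 (GRCm38), where Mcpt8 spans chr14:56082166-56085273 and Mcpt4 lies nearby at chr14:56059629-56062313. Mcpt4 had 0 UMIs in basophils, 1911 CPM in Kit-positive cells and 6785 CPM in mast-like cells, which makes it at least 506-fold lower in basophils than in mast-like cells at the limit of 3 counts. Tpsb2, a tryptase, was at least 359-fold lower in basophils than in mast-like cells by the same limit. Gzmb, the cytotoxic protease granzyme B, had 2452 CPM (2251 to 2666) in basophils and 352 CPM (284 to 431) in mast-like cells, but its UMIs lay in 18 of the 47 basophils, with up to 127 in 1 cell. Ctsg, cathepsin G, had 84.9 CPM in basophils and 3.74 CPM in mast-like cells. Cpa3 was shared, with 1049 CPM in basophils, 6910 CPM in Kit-positive cells and 7212 CPM in mast-like cells. Mcpt8, the rule gene, had 2121 CPM in basophils and 14.97 CPM in mast-like cells, a gap that the choice of cells fixed. Kit-positive cells held 2 to 142 Mcpt8 UMIs each, with a median of 24, against 2 to 39 in basophils, with a median of 7. The Kit-positive cells were deeper, with a median of 10170.5 UMIs against 3963. After thinning to equal depth, 40% of them held an Mcpt8 UMI, against 83.0% of basophils.

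**Figure D2:**
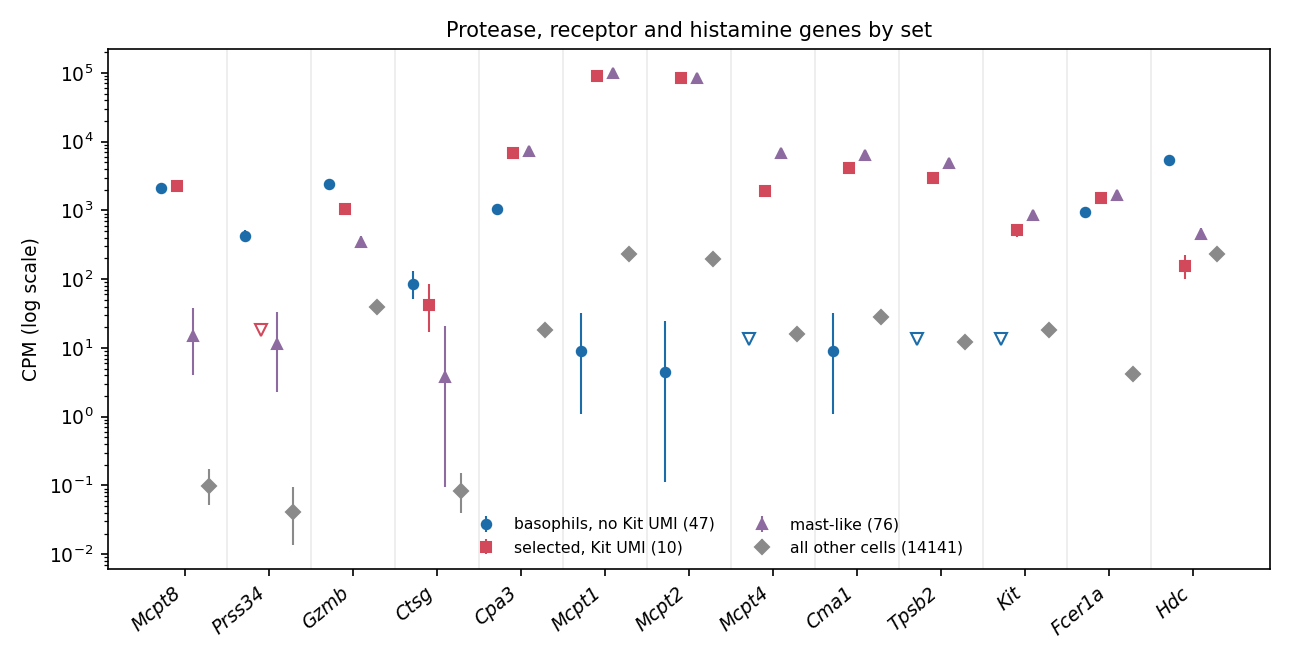
CPM on a log axis for 13 genes in the 47 basophils, the 10 selected cells with a Kit UMI, the 76 mast-like cells and all 14141 other cells, with exact 95% Poisson intervals, which are often smaller than the symbols. Open triangles mark 0 UMIs and stand at the level that 3 counts would give. Mcpt4, Tpsb2 and Kit have 0 UMIs in basophils, while Hdc, at 5484 CPM, is higher in basophils than in the other sets.

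Set against the 76 mast-like cells, 306 of 1624 genes with at least 50 UMIs reached a 2-fold higher level in the 57 selected cells (18.8%) and 88 lower (5.42%). With the 47 basophils alone, 374 of 1224 genes were higher (30.6%) and 196 lower (16%), with a median log2 fold of 0.25. Among the 10 highest in basophils, Mcpt8 chose the cells, and Ccl3, Ccl6, Csrp3 and the antibacterial protein Pglyrp1, at 603 CPM in basophils against 3.74 CPM in mast-like cells, were spread over many cells. Krt8 and Epcam, epithelial genes on the same list, were not, since 61 of 62 Krt8 UMIs and 66 of 70 Epcam UMIs came from 1 basophil barcode of suffix 1. The 10 lowest included the mast cell proteases and Kit, which had chosen the sets. Outside the genes used to choose cells, they included Tph1, which starts serotonin synthesis, and the chemokine Ccl2, both at 0 UMIs in basophils against 887 CPM of Tph1 and 696 CPM of Ccl2 in mast-like cells.

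Hdc was high in the basophils of every suffix. Hdc, which makes histamine from histidine, had 5243, 6131, 5178 and 5607 CPM in the basophils of suffixes 1 to 4. The other cells of these suffixes had 132, 76.2, 170 and 303 CPM. After thinning each cell to 1000 UMIs, 95.7% of basophils held an Hdc UMI, against 0.624% of 481 B-like cells, and without thinning the shares were 100% and 2.41%. Of 2267 neutrophil-like cells, which are known to make Hdc as well, 83.5% held an Hdc UMI after the same thinning. The median depth of B-like cells of 3768 UMIs is near the 3963 of basophils. Neutrophil-like cells stood at 2221 CPM of Hdc. Slc18a2, which loads amines into granules, had 322 CPM in basophils and 254 CPM in mast-like cells. Of 26 listed genes of histamine, lipid and granule mediators, 12 were higher and 6 lower in the 47 basophils.

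Of the enzymes that make lipid mediators, early members of the leukotriene pathway were the higher ones against all other cells. Alox5ap, which presents arachidonic acid to 5-lipoxygenase, had 2872 CPM in basophils and 245 CPM in the other cells. Alox5, the lipoxygenase itself, had 196 CPM in basophils and 5.41 CPM in the other cells. Of 730 Alox5 UMIs in passing cells, 10.1% lay in the 57 selected cells and 6.03% in the 47 basophils. The Kit-positive cells thus held Alox5 as well. In all Mcpt8-selected cells the log2 fold of Alox5 was 4.89, but 2.01 against the mean of the other classes. For Alox5ap these folds were 3.07 and 2.56. The Alox5 fold thus depended more on the cells it was set against, and its level in mast-like cells is not given here. Ltc4s, which makes leukotriene C4, had 0 UMIs in basophils, a level under 13.4 CPM at 3 counts, against 41.2 CPM in mast-like cells. Hpgds, which makes prostaglandin D2, also had 0 UMIs in basophils, against 153 CPM in mast-like cells. Cyp11a1, a rule gene that starts steroid synthesis, had 1447 CPM in basophils and 498 CPM in mast-like cells. Its electron donor Fdx1 ran the other way, with 17.9 CPM in basophils, 394 CPM in Kit-positive cells and 288 CPM in mast-like cells.

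Of the cytokine genes, Il4 chose the cells and Il13 did not. Il13, which shares receptor chains with IL-4 and lies beside Il4 on chromosome 11, had 347, 1423, 875 and 346 CPM in the basophils of suffixes 1 to 4. The other cells of those suffixes held 0 UMIs in suffix 1, and 0.232, 1.43 and 0.879 CPM in suffixes 2 to 4. The basophils of suffix 4 held only 5 Il13 UMIs, in 1 cell. Few cells carried most of these messages. For Il4, 5 of the 47 basophils with at least 10 UMIs each held 71.0% of 252 UMIs, and for Il13, 5 such cells held 75.3% of 154 UMIs. An Il13 UMI was seen in 14 basophils, 13 of which also had an Il4 UMI, while 21 had Il4 alone and 12 had neither. Il5 and Il9, other type 2 cytokines, had 0 UMIs in basophils, but only 12 and 0 UMIs over all passing cells, too few to compare.

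Beyond type 2 cytokines, basophils held messages for factors that act on other cells. Il6 had 1799, 2618, 770 and 1177 CPM in the basophils of suffixes 1 to 4, and 10.8, 4.09, 29.9 and 40.1 CPM in the other cells. Of the 47 basophils, 36 held an Il6 UMI, 14 of them 10 or more. Csf1, the growth factor of macrophages, had 1597, 2899, 3044 and 831 CPM in basophils by suffix, against 36.9, 38.4, 42.5 and 69.5 CPM in the other cells. Hgf, hepatocyte growth factor, which acts on epithelium through the receptor Met, had 436, 1054, 770 and 2284 CPM in basophils by suffix, against 3.60, 2.55, 5.75 and 11.5 CPM in the other cells. Hgf had 0 UMIs in the 10 Kit-positive cells, 11.2 CPM in mast-like cells and 134 CPM in 26 fibroblast-like cells. Osm, oncostatin M, had 3202, 2828, 385 and 3115 CPM in basophils by suffix, so that suffix 3 was low among them, against 51.6, 24.0, 201 and 308 CPM in the other cells.

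Most other cytokines were not higher. Over the whole list of cytokines and growth factors, 7 of 29 genes reached a 2-fold higher level and 14 a 2-fold lower level in the 47 basophils, and 13 had 0 UMIs, among them Il10, Csf2 and Ifng. Over all genes tested, 10.3% were higher and 40.8% lower. Il10, Csf2 and Ifng had 1358, 862 and 2919 UMIs over all passing cells. Il10 and Csf2 lay under 13.4 CPM in the other cells, so a difference was not detectable for them. The count of lower genes thus partly reflects the limit of depth. Il1b had 10133 CPM in basophils and 6440 CPM in the other cells, but 31437 CPM in neutrophil-like cells, and its basophil UMIs lay in 25 of 47 cells. Tnf, at 420 CPM in basophils and 266 CPM in the other cells, was seen in 7 basophils.

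The CC chemokines Ccl3 and Ccl4, which draw monocytes, neutrophils and lymphocytes, and Ccl6 and Ccl9, a related pair of mouse chemokines, were abundant in basophils. All 4 genes lie in 1 cluster on chromosome 11. Ccl4 had 41897, 39684, 68715 and 25334 CPM in the basophils of suffixes 1 to 4, against 497, 132, 1143 and 1815 CPM in the other cells. Ccl3 had 18424, 20290, 8607 and 13567 CPM in basophils by suffix, against 186, 122, 553 and 1093 CPM in the other cells. Suffix 3 was thus highest for Ccl4 and lowest for Ccl3 among the basophils. Ccl6 had 9427 CPM in basophils and 377 CPM in the other cells, and Ccl9 had 4095 CPM against 87.4 CPM. The 10 Kit-positive cells held 102 CPM of Ccl4 and 113 CPM of Ccl3, and mast-like cells 1501 and 138 CPM. Of all Ccl4 UMIs in passing cells, 5.60% came from the 47 basophils, which are 0.331% of the cells.

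Other chemokines were absent or low. Of 21 listed chemokine genes, 4 were higher and 17 lower in the 47 basophils, and 12 had 0 UMIs, among them Cxcl3, Cxcl10, Ccl22 and Ccl24. The same list gave 7 higher and 14 lower in the 57 cells, where Ccl1, Ccl2 and Ccl7 passed through the Kit-positive cells alone, since basophils held 0 UMIs of each. Cxcl2 had 3206 CPM in basophils and 7210 CPM in the other cells, but by suffix basophils had 2589, 4286, 3849 and 2976 CPM and the other cells 2198, 1510, 5741 and 9682 CPM. Its direction therefore differed between suffixes, with basophils higher in suffixes 1 and 2 and lower in suffixes 3 and 4.

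**Figure D3:**
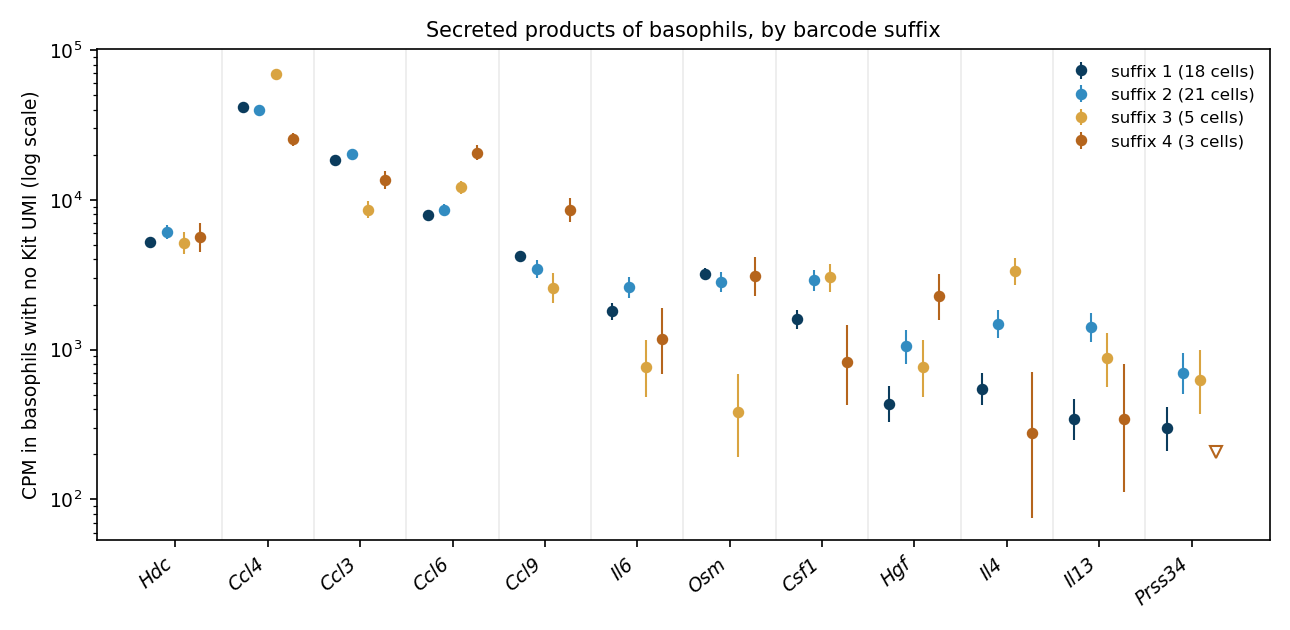
CPM on a log axis for 12 secreted products or their enzymes in basophils with no Kit UMI, 1 point for each suffix, with exact 95% Poisson intervals. The open triangle marks 0 Prss34 UMIs in suffix 4. Hdc stays between 5178 and 6131 CPM, while Il4 runs between 277 CPM in suffix 4 and 3324 CPM in suffix 3, where 1 cell held 56 of 95 UMIs.

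Among classes of cells named by their markers, the basophil set had the highest level of Ccl3, Ccl4, Ccl6, Ccl9, Hdc, Il6, Osm, Csf1 and Hgf. The next class was neutrophil-like for Ccl3, with 3935 CPM, Ccl4, with 5171 CPM, and Osm, with 918 CPM, counting only classes of at least 50 cells. Il1b and Ptgs2, the inducible cyclooxygenase, were higher in neutrophil-like cells, with Ptgs2 at 1273 CPM in basophils and 2450.4 CPM in neutrophil-like cells. Areg, a ligand of the epidermal growth factor receptor, had 205 CPM (150 to 274) in basophils, 387 CPM in T-like cells and 33.7 CPM in mast-like cells, and was seen in 3 basophils. Of its 46 UMIs in basophils, 19 came from the barcode with 66 Epcam UMIs. The log2 fold of Areg in the 57 cells was -0.26, and -0.94 without that barcode and -1.10 without suffix 2. In the basophils alone it was 0.54. For the 57 cells against the mean of the other classes it was 0.62. The sign of the Areg fold thus depended on the cells compared. Egfr itself had 0 UMIs in basophils, under 13.4 CPM at 3 counts, against 3.19 CPM in the other cells, so a difference was not detectable at this depth. None of the 13 listed genes of this receptor family and its ligands with enough counts was 2-fold higher in basophils, and 8 were lower. Of these 13, 6 had 0 UMIs in basophils. The count of lower genes includes Egfr, whose difference was not detectable, and so partly reflects the limit of depth.

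**Figure D4:**
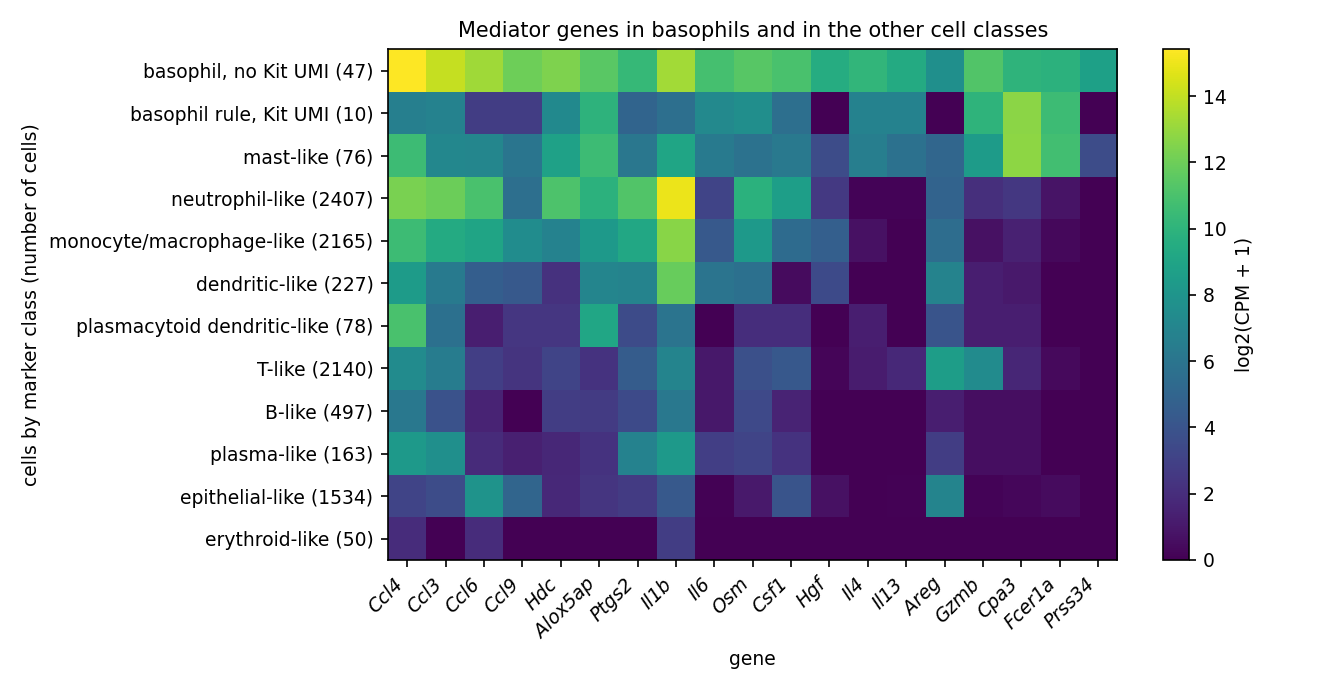
Levels of 19 mediator and receptor genes as log2(CPM + 1), by colour, in the 2 sets of selected cells (upper rows) and in other classes of at least 50 cells named from markers. The basophil row has the highest Ccl4, Ccl3, Ccl6, Ccl9, Hdc, Il6, Osm, Csf1 and Hgf, the neutrophil-like row the highest Il1b, and the mast-like row the highest Cpa3.

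Transcription factors were led by Gata2, a rule gene, with 1929 CPM in basophils and 576 CPM in mast-like cells. Cebpa, which in mouse progenitors favours the basophil over the mast cell fate, had 174 CPM (124 to 238) in basophils, 3.74 CPM (0.0948 to 20.9) in mast-like cells and 0 UMIs in the 10 Kit-positive cells. By suffix, Cebpa had 242, 123, 70.0 and 0 CPM in basophils, against 15.8, 9.50, 30.8 and 32.4 CPM in the other cells, and 30 of its 39 UMIs lay in suffix 1. Its log2 fold in the 57 cells was 1.77, and 0.195 without suffix 1. The fold without suffix 1 includes all 10 Kit-positive cells, none of which lay in suffix 1. The basophils of suffix 4 held 14447 UMIs in all, too few to tell 32.4 CPM from 0. Mitf, a mast cell factor, had 0 UMIs in basophils, 65.7 CPM in Kit-positive cells and 71.1 CPM in mast-like cells. Gata1, which basophils and mast cells share, was at 22.3 CPM in basophils with 5 UMIs, too few to place it. Nfil3, a leucine zipper factor, and Egr3, an early growth response factor, had 442 and 250 CPM in basophils, against 89.7 and 19.7 CPM in the other cells. Irf8, a factor of monocytes and dendritic cells, had 0 UMIs in basophils, at least 15.1-fold lower than in the other cells. Over the list, 11 of 37 were higher and 13 lower, and 8 had 0 UMIs in basophils.

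Surface and adhesion genes gave 11 higher and 8 lower of 19 in the 47 basophils. Itga2, the integrin known as CD49b that is used to stain basophils, had 112 CPM in basophils and 5.36 CPM in the other cells. Itga2b, an integrin of platelets, had 196 CPM in basophils and 337 CPM in mast-like cells. The tetraspanin Cd9 stood at 2608 CPM in basophils and 131 CPM in mast-like cells, and Itgae, the integrin of cells in the epithelial layer, had 0 UMIs in basophils against 273 CPM in mast-like cells. Of chemoattractant and lipid receptors, 11 of 26 were higher and 11 lower, with the adenosine receptor Adora2b at 299 CPM in basophils and 25.1 CPM in the other cells, and Ccr7, which guides cells to lymph nodes, at 0 UMIs. Of these 26, 10 had 0 UMIs in basophils.

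Antigen presentation by major histocompatibility complex class II was low. Of 16 listed genes, 0 were at least 2-fold higher and 11 lower in the 47 basophils. Cd74, the invariant chain, had 17.9 CPM in basophils and 10297 CPM in the other cells, and H2-Eb1 had 0 UMIs, at least 210-fold lower. The class I gene H2-D1 had 3162 CPM in basophils and 1901 CPM in the other cells. Interferon response genes gave 1 higher, Isg15 at 482 against 229 CPM, and 13 lower of 15, and 6 of the 15 had 0 UMIs in basophils. Proliferation genes gave 1 higher and 8 lower of 15, and Mki67 was seen in 1 basophil. In the 57 cells the proliferation list gave 5 higher and 0 lower, with Stmn1 at 40.2 CPM in basophils and 496 CPM in the Kit-positive cells.

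T cell, B cell, dendritic, fibroblast, natural killer and erythroid markers summed to between 0 and 13.4 CPM in basophils, and no basophil held 3 or more UMIs of these lists. At least 3 UMIs of a list were held by 17 of the 47 basophils for innate lymphoid markers, 13 for monocyte and macrophage markers, 8 for epithelial markers and 6 for neutrophil markers. Neutrophil markers summed to 246 CPM in basophils and 1379 CPM in the other cells, and 7 of 11, among them Csf3r, were at 0. Monocyte and macrophage markers summed to 415 CPM against 4434 CPM, mostly through the receptor Ccr2 at 371 CPM, and 7 of 11, C1qc and Csf1r among them, were at 0. Eosinophil markers summed to 134 CPM in basophils and 22.3 CPM in the other cells, and 7 of 9 were at 0. Of 5 with enough counts, 2 were at least 2-fold higher and 3 lower. Plasma cell, plasmacytoid dendritic and endothelial markers summed to 31.3, 53.6 and 134 CPM, against 603, 420 and 52.3 CPM in the other cells. For each of these lists, 1 basophil held 3 or more UMIs. Markers of group 2 innate lymphoid cells, which share Il1rl1 with basophils, summed to 616 CPM in basophils and 357 CPM in the other cells, and 4 of 8 were at 0. Epithelial markers summed to 1451 CPM in basophils and 1673 CPM in the other cells, and 1 barcode with 20620 UMIs carried 66 Epcam UMIs. Early response genes, which the digestion of tissue can induce, were 2-fold higher for 10 of 17 genes and lower for 3 in basophils. Against mast-like cells, 14 of 16 were higher in basophils, beside 30.6% of all genes so compared. The part of tissue digestion in the levels of cytokines and chemokines was not tested.

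Basophils differed from each other in chemokines and Il1b. After thinning to 1000 UMIs per cell, which all 47 reached, the ratio of variance to mean over cells was 37.3 for Ccl4, 25.6 for Il1b, 21.3 for Ccl3 and 15.8 for Cxcl2, the highest among the genes ranked, whose thinned mean was at least 0.5. Ccl4 ranged between 0 and 122 UMIs per 1000, with a median of 23. At 5 or fewer lay 16 cells, of which 5, 8, 2 and 1 were in suffixes 1 to 4, and at 20 or more lay 27 cells, of which 11, 12, 3 and 1 were in those suffixes. Cells low and high in Ccl4 were thus found in every suffix.

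The genes that varied most like Ccl4 over the 47 basophils, ranked by Spearman's rho on thinned counts among 230 genes, were Ccl3 (0.75), Nfkbia (0.73), Srgn (0.66), Nfkbiz (0.62) and Tnfaip3 (0.60). Nfkbia, Nfkbiz and Tnfaip3 encode inhibitors or regulators in the NF-kB pathway, and Srgn the core protein of granule proteoglycans. Il6 (0.58), Osm (0.58) and Hdc (0.57) followed within the first 10. At the other end stood the adaptor Tyrobp (-0.53) and the actin-binding peptide Tmsb4x (-0.45). Mcpt8 (-0.02) and Ccl6 (-0.08) showed little relation to Ccl4. These values describe cells that share libraries and counts of 1 fixed total, in which one gene's rise lowers the others, and the rho of Ccl4 with depth was 0.30.

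**Figure D5:**
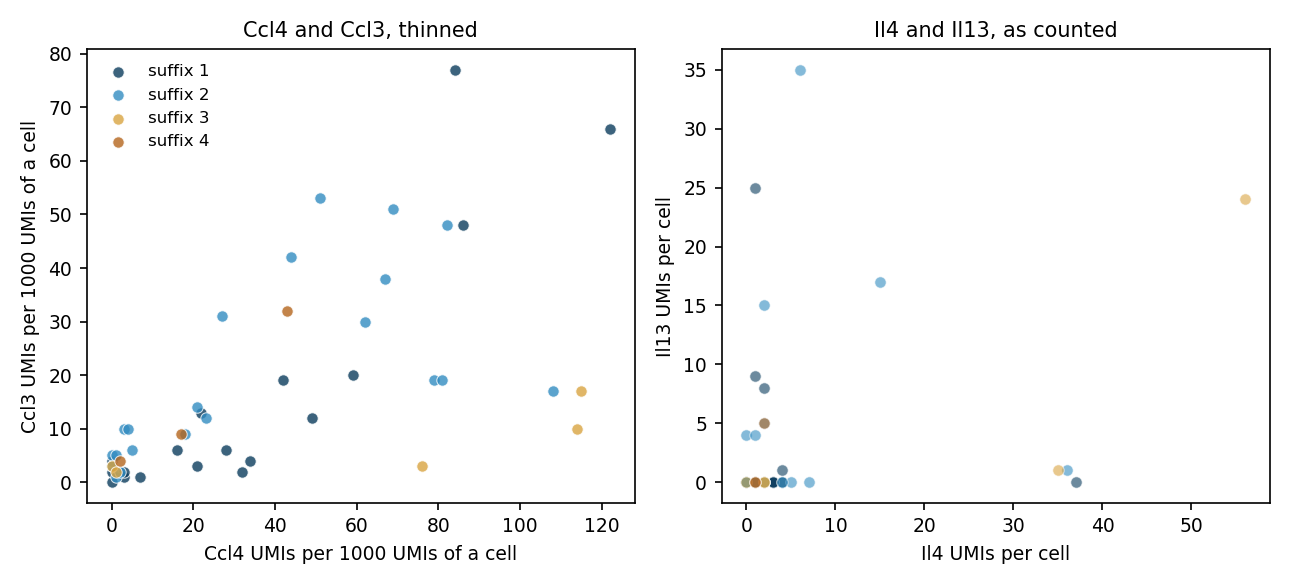
Each point is 1 of the 47 basophils, coloured by suffix. Left, Ccl3 against Ccl4 counts per cell at a thinned total of 1000 UMIs, with Ccl4 between 0 and 122; right, Il13 against Il4 UMIs as counted, where most cells lie near 0 and few cells hold more than 10 UMIs of either gene.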

How the data were processed

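The authors deposited raw counts, as whole numbers of UMIs per gene and barcode, made with Cell Ranger 3.0.2 on build mm10; the tool and build are from the submitters' processing notes and the matrix header. No source used here names the annotation release. Cells were captured with a 10x Chromium 3′ kit (V3) after collagenase digestion and sorting on CD45, per the labels' protocols. The members and gene lists were chosen with earlier results of these data known.

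UMIs were summed per set, divided by the set's total to give CPM, and compared after adding 1 CPM to each level. Genes needed 50 UMIs over all passing cells, or over both sets in comparisons with mast-like cells. A cell took a class name when it held at least 3 UMIs of 1 of 15 marker lists and these made up at least 75% of its marker UMIs. Sets were not replicates, so no test was made. Exact Poisson intervals go with CPM, exact binomial ones with shares, and 3 counts are the limit for 0. No doublet caller was run, and an alternative left out members with markers of other lineages. Named genes were those of the fixed lists, the 25 highest with at least 50 UMIs, the 10 lowest with at least 100 CPM in the other cells, the 10 highest and lowest against mast-like cells, and the 15 most variable. Python 3.11.15 with scipy 1.17.1 and, for 1 alternative, edgeR 4.0.16 were used. The fold computation was tested on simulated data. A result on 1 listed gene is not reported here.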

Additional observations from a re-analysis of the deposited data

Results flagged for a closer look

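Barcodes that failed the cell filter were not used in the comparisons. These 3828 barcodes held 9 Mcpt8 UMIs, above the limit of 3 that a count of 0 allows, and 1 of them met the basophil rule.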

How the results depend on the processing

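The counts of genes at least 2-fold higher or lower stayed within 1.5 times of 1244 and 4556 under most of 23 alternatives. With 10 CPM added they were 578 and 1330, and with folds centred on the median gene 2536 were higher. Leaving out members with 3 or more marker UMIs of another lineage kept 10 cells and gave 9254 lower genes. The mast list contains Cpa3, and 29 of the 47 basophils passed that limit on it. Without suffix 2 the number of members was 35. Against mast-like cells, 279 to 374 genes were higher under the 4 alternatives, beside 306. Of 1364 fold values of 62 named genes under 22 alternatives, 653 stayed within the counting interval, 675 moved beyond it and 36 changed sign, shown as log2 folds. The 36 leave out Areg, which was counted as moved, at -0.26 in the main setting and 0.54 in the members without Kit. Without members holding 3 or more marker UMIs of another lineage, the sign turned for Mcpt1 (-2.66), Mcpt2 (-2.42), Mcpt4 (-4.06), Kit (-4.28), Tpsb2 (-3.74), Cma1 (-4.85) and Gata1 (-0.16). With the 47 members without Kit, the sign turned for Mcpt1 (-4.56), Mcpt2 (-5.18), Mcpt4 (-4.06), Kit (-4.28), Tpsb2 (-3.74), Cma1 (-1.53) and Fdx1 (-0.69). Within suffix 1, the sign turned for Cxcl2 (0.24), Mcpt1 (-5.875), Mcpt2 (-5.63), Mcpt4 (-3.29), Kit (-3.84), Tpsb2 (-3.54), Cma1 (-4.68), Ptprc (1.59) and Fdx1 (-1.87). Within suffix 2, the sign turned for Cxcl2 (1.24), Tpsb2 (-0.95), Ptprc (2.64) and Fdx1 (-0.003079). Within suffix 3, the sign turned for Osm (-0.79), Cebpa (-0.64), Cd69 (-1.49) and Ier3 (-0.61). Within suffix 4, the sign turned for Prss34 (-0.065), Il18r1 (-0.076), Cebpa (-5.06), Nfil3 (-0.46) and Cd9 (-0.28). Each of the 10 Kit-positive cells held 3 or more mast marker UMIs. They were absent from the setting without other-lineage members, from the 47 members and from suffix 1. The 47 basophils held 0 UMIs of Mcpt4, Tpsb2 and Kit. Within suffix 3 the Kit-positive cells held 74870 of 103452 member UMIs, and within suffix 4 they held 80929 of 95376. The basophils alone stood above the other cells for Osm and Cebpa in suffix 3 and for Il18r1 in suffix 4. In suffix 4 these basophils held 0 UMIs of Cebpa and Prss34. By suffix, values of Cd69, Ier3, Nfil3 and Cd9 in basophils alone are not given. Fewer cells enter each setting in which a sign turned, and the cause of the sign changes was not tested. The settings with 47 members, without the Epcam-rich member and within each suffix were chosen after seeing the data. The planned comparison within suffixes of at least 50 members was not run, because no suffix held 50. No paired analysis was possible because each group has 1 sample and suffixes are not assigned to samples. At 223924 UMIs in the 47 basophils, genes under 13.4 CPM could have been missed.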
